A study of Mus musculus with 415 samples.

Results

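Zic1, Zic4, Zic2 and Zic5 lie in the mouse genome as neighbouring pairs, Zic1 beside Zic4 on chromosome 9 and Zic2 beside Zic5 on chromosome 14. The accessibility of both pairs was read from ATAC-seq of single cells, an assay that uses the transposase Tn5 to put sequencing adapters into open chromatin, so that each sequenced fragment marks accessible DNA. The Zic regions were all regions of the deposited table that overlap chr9:91220000-91320000, the window of Zic1 and Zic4, or chr14:122840000-122910000, the window of Zic2 and Zic5, on genome build mm9. Of 23180 regions in all, 5 met this rule, 2 in the Zic1-Zic4 window and 3 in the Zic2-Zic5 window. The rule goes by position and not by a measured value, but the genes were picked with earlier results of these data known.

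All cells carry the labels of 1 treatment of R1 mouse embryonic stem cells, an established line. They had been aggregated into embryoid bodies over 48 hours in hanging drops. Retinoic acid, which is made from vitamin A and promotes neural differentiation, was then given for 4 days, at 0.5 mM as the labels state it. Capture and transposition took place on the Fluidigm C1 system. Each sample was 1 cell, no untreated group was analysed here, and the labels name no separate cultures, so the series counts as 1 sample and no test across cells was made. Intervals are exact 95% intervals and cover the counting of cells only.

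Zic proteins are transcription factors with a tandem array of C2H2 zinc fingers, related to the Gli factors of Hedgehog signalling. In mouse embryos the family is known for roles in the neural plate, the dorsal neural tube, the cerebellum and the neural crest. Zic1 and Zic4 are known from cerebellar development. Zic2 is known from forebrain patterning, where its loss causes holoprosencephaly, and Zic5 from neural crest formation. In the RefSeq annotation of the later build GRCm38, 0 other protein-coding genes lie between Zic1 and Zic4, and 0 between Zic5 and Zic2.

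The deposited table names no genes, and positions were not carried between builds, so which Zic region holds which start site was not determined. The promoters of the genes after which the windows are named are shown as RefSeq gives them on GRCm38.p6, from 250 bases before to 50 bases after the start. The table of promoters matched 3 of the 4 genes, Zic1 on the minus strand and Zic4 on the plus strand of chromosome 9, and Zic5 on the minus strand of chromosome 14. They are printed 5′ to 3′, and capitals mark CG dinucleotides, the sites of DNA methylation, to show how much the 3 promoters differ in them.
Zic1: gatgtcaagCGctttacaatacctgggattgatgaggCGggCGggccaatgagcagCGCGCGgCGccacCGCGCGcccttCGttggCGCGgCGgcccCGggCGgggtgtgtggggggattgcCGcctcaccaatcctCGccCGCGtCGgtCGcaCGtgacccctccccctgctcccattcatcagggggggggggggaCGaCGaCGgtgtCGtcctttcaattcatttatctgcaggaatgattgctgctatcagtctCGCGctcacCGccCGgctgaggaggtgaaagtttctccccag
Zic4: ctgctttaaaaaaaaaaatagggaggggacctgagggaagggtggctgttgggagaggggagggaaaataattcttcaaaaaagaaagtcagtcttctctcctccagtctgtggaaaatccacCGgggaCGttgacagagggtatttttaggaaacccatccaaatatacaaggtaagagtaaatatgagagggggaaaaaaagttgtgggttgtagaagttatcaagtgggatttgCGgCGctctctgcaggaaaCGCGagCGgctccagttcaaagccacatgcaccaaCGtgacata
Zic5: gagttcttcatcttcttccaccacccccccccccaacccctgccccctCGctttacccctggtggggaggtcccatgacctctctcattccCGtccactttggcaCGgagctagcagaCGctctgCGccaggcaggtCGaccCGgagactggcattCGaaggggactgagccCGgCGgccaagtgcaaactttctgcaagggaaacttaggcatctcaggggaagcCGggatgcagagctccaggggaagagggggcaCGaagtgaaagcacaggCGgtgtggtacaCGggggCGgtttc

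The Zic1 promoter held 31 CG dinucleotides, more than 89.4% of all RefSeq promoters of the same length. The Zic5 promoter held 15 and the Zic4 promoter 8, where the median promoter held 7. The sequence GGGCGG, the binding motif of Sp1, was found on either strand 3 times in the Zic1 promoter, 1 time in that of Zic5 and 0 times in that of Zic4, and 35.7% of all promoters held it. The sequence AGGTCA, the half-site of retinoic acid receptors, was found 1 time, in the Zic5 promoter, and in 16.3% of all promoters. The matches to the 2 motifs shared 0 bases. Both searches describe these letters in these windows only.

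Any value above 0 counted as open. The 2 Zic1-Zic4 regions were open in 17.3% and 10.1% of the cells, and the 3 Zic2-Zic5 regions in 19.5%, 16.6% and 13.5%. The median of all 23180 regions was 14.5%. The first Zic1-Zic4 region, chr9:91259326-91260886, was open in 72 cells (17.3%, interval 13.8% to 21.3%). The second, chr9:91276199-91276823, was open in 42 cells (10.1%, 7.39% to 13.4%). The 2 intervals did not overlap.

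In the Zic2-Zic5 window, the first region, chr14:122852392-122853660, was open in 81 cells (19.5%, 15.8% to 23.7%), the most of all 5. The second, chr14:122863219-122864853, was open in 69 cells (16.6%, 13.2% to 20.6%). The third, chr14:122873384-122874769, was open in 56 cells (13.5%, 10.4% to 17.2%). Neighbours in this order overlapped in their intervals. The 3 regions were read in the same cells and were not compared cell by cell, so their order was not tested.

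**Figure D1:**
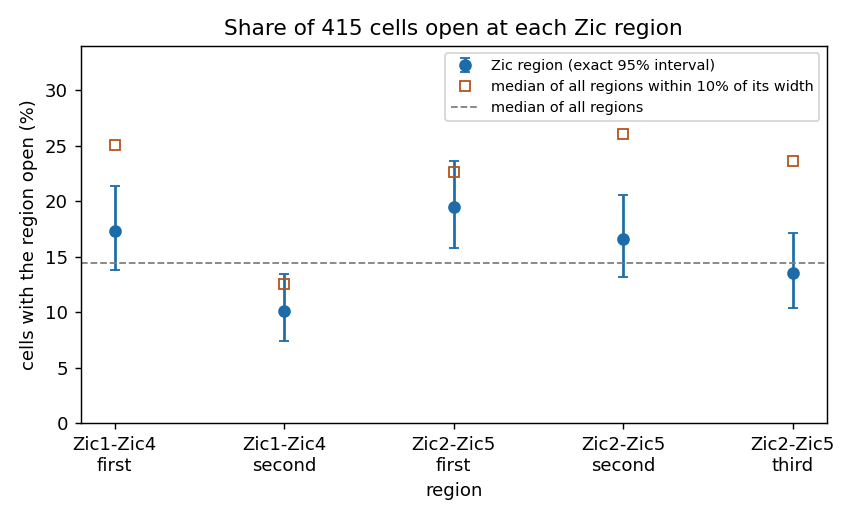
Share of all cells open at each Zic region (vertical axis, %), with exact 95% intervals, beside the median of all regions within 10% of its width (open squares) and the median of all regions (dashed line, 14.5%). All 5 Zic regions lie below the median of regions of like width, and 3 of the 5 intervals do not reach it.

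All 5 Zic regions were open in fewer cells than the median region of like width. Wide regions collect more fragments, and 4 of the 5 were wide, at 1560, 1268, 1634 and 1385 bp where the median region had 762 bp. The second Zic1-Zic4 region had 624 bp. All regions within 10% of the width of the first Zic1-Zic4 region had a median share of 25.1%, against its 17.3%. For the second Zic1-Zic4 region that median was 12.5%, against its 10.1%. For the 3 Zic2-Zic5 regions it was 22.7%, 26.02% and 23.6%. Of the regions of like width, 17.6% to 39.5% were open in fewer cells than the Zic region.

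Signal at the Zic regions was low in single cells, as it was at the median region. The median over all cells was 0 fragments at each of the 5 regions, as it is for any region closed in most cells. Here 1 fragment stands for the bases of 1 read pair, a unit read from the values. Among open cells, the first Zic1-Zic4 region ranged from 0.0338 to 2.68 fragments with a median of 1, and the second from 0.0473 to 2.70 with a median of 0.872. The 3 Zic2-Zic5 regions had a median of 1 fragment and highest values of 4, 4.03 and 4.34. The median region of the whole table also had 1 fragment in its open cells. Values below 1 are sums shorter than the bases of 1 read pair, and how they arose was not tested.

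Over all cells, the Zic regions collected 49.1 and 57.2 fragments per kb in the Zic1-Zic4 window and 78.2, 49.2 and 48.0 fragments per kb in the Zic2-Zic5 window, each below the median of 94.7 fragments per kb over all regions. More than 1 fragment was found in 18 of the 72 cells open at the first Zic1-Zic4 region (25%) and in 6 of the 42 open at the second (14.3%). In the Zic2-Zic5 window it was found in 24, 19 and 13 open cells (29.6%, 27.5% and 23.2%). The median over all regions was 24.2%. The Zic regions were therefore mostly seen through 1 fragment at a time.

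The Zic2-Zic5 window was densely covered and the Zic1-Zic4 window was not. The 3 Zic2-Zic5 regions covered 4287 bases of 70 kb, and when the genome was divided into 13734 stretches of that length that hold at least 1 region, 1.69% were covered as much or more, and 16.4% held 3 or more regions. The 2 Zic1-Zic4 regions covered 2184 bases of 100 kb, where 50.1% of 11700 such stretches held 2 or more regions and 23.9% were covered as much. The gaps between neighbouring Zic2-Zic5 regions were 9.56 and 8.53 kb, and the gap in the Zic1-Zic4 window was 15.3 kb.

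Neighbouring regions were farther away on chromosome 9 than on chromosome 14. The nearest regions outside the Zic1-Zic4 window lay 624 kb before and 825 kb after it and were open in 18.8% and 18.1% of cells. Outside the Zic2-Zic5 window, the region 66.9 kb before it was open in 7.95% of cells (5.54% to 10.99%) and that 23.2 kb after it in 32.5% (28.04% to 37.3%).

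Openness rose strongly with the number of open regions in a cell, which is taken here as its depth. The Zic1-Zic4 regions did so more than most. How deeply a cell was sampled and how open its chromatin was cannot be told apart in this number. Cells had from 756 to 12267 open regions with a median of 3928, and from 791 to 25069 fragments. An expected share was therefore computed from each region's frequency and each cell's number of open regions. The cells were divided by depth into 4 classes of about equal size. At least 1 Zic1-Zic4 region was open in 9.62%, 9.62%, 21.2% and 59.2% of the cells from the shallowest to the deepest class, with 10.2%, 18.5%, 27.7% and 43.98% expected. For the Zic2-Zic5 window the shares were 24.04%, 24.04%, 44.2% and 57.3%, with 17.9%, 31.4%, 44.9% and 64.8% expected.

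**Figure D2:**
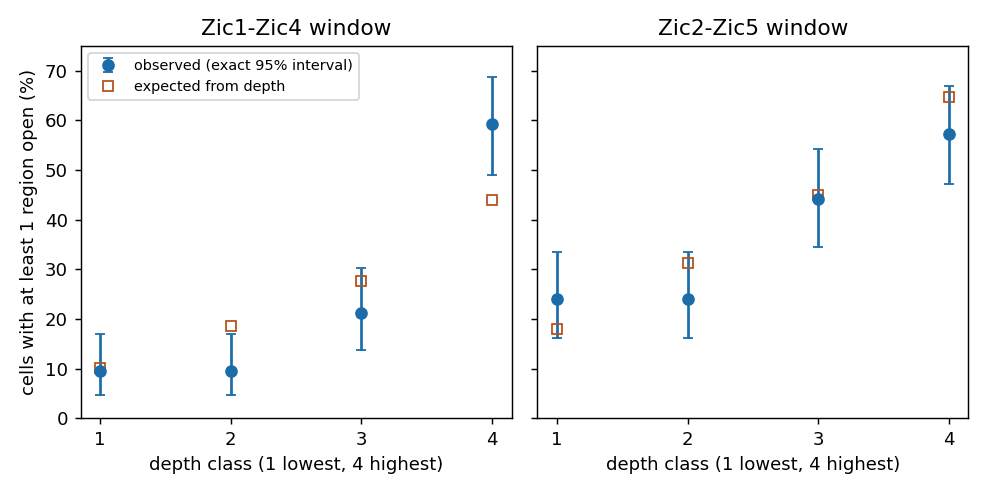
Share of cells with at least 1 open region in each window (vertical axis, %) by depth class of cells, from fewest to most open regions (horizontal axis), with exact 95% intervals for the observed shares and squares for the shares expected from depth. In the deepest class the Zic1-Zic4 window lies above expectation (59.2% observed, 43.98% expected) and the Zic2-Zic5 window below it (57.3% and 64.8%).

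In the deepest class, the first Zic1-Zic4 region was open in 44 cells where 32.4 were expected, a ratio of 1.36 (counting interval 0.986 to 1.82), and the second in 26 where 19.5 were expected (1.33, 0.872 to 1.96). Both counting intervals span 1. As a share of these cells, the first was open in 42.7% (exact interval 33.02% to 52.8%), with the expected 31.5% below the interval. The second was open in 25.2% (17.2% to 34.8%), with the expected 18.9% inside it. Both ratios were higher than those of 98.3% or more of all regions, whose 5th and 95th percentiles were 0.743 and 1.245. The 3 Zic2-Zic5 regions had ratios of 1.16, 0.802 and 0.898. For the Zic1-Zic4 window as a whole the expected share lay below the interval of the observed one in these cells (49.1% to 68.8%), so the depth correction does not take up all of the dependence on depth, which limits every depth-scaled value of these 2 regions.

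In all, 51.6% of the cells (interval 46.6% to 56.5%) had some Zic region open. At least 1 Zic1-Zic4 region was open in 24.8% of the cells (20.7% to 29.3%; 25.1% expected), and at least 1 Zic2-Zic5 region in 37.3% (32.7% to 42.2%; 39.7% expected). By number of open Zic regions, 48.4% of the cells had 0 and 33.01% had 1, against 47.7% and 33.5% expected. There were 53 cells with 2 open Zic regions, 19 with 3, 5 with 4 and 0 with all 5, against 57.4, 16.9, 3.44 and 0.368 expected. The median number of open regions in the whole table was 2810 in cells with no open Zic region, 4219 in those with 1 and 6097 in those with 2.

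The 2 gene pairs were not open together more often than depth gives. Both windows were open in 44 cells (10.6%, 7.81% to 13.97%), where 51.6 were expected, a ratio of 0.853 (counting interval 0.620 to 1.14). The Zic1-Zic4 window alone was open in 59 cells (52.4 expected), the Zic2-Zic5 window alone in 26.7% of the cells (27.2% expected) and neither in 48.4% (47.7% expected). This counting interval spans 1, so by it neither an excess nor a deficit was detectable at this depth. The ratio lay on the other side of 1, at 1.27, when open meant more than 1 fragment, and at 1.20 after each cell was thinned to 1500 open regions. Both values rest on fewer open cells and were given no interval.

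Before correction for depth, each window was open in a larger share of the cells open at the other, with overlapping intervals. The Zic2-Zic5 window was open in 42.7% of the cells open at Zic1-Zic4 (33.02% to 52.8%) and in 35.6% of those closed there (30.3% to 41.2%). Depth alone gave 53.8% and 35.02%, since the cells open at Zic1-Zic4 had a median of 6033 open regions and the others 3322.5. The expected 53.8% lay above the interval of the observed 42.7%, and the expected 35.02% lay inside its interval. The Zic1-Zic4 window was open in 28.4% of the cells open at Zic2-Zic5 (21.4% to 36.2%) and in 22.7% of those closed there (17.7% to 28.3%). Expected were 30.5% and 21.8%, both inside the intervals.

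Region by region, 0 of the 5 Zic regions were 1.5-fold or more higher, on the depth-scaled share, in cells open at the other window. The count was 2 of 5 when open meant more than 1 fragment, 2 after thinning to 1500 open regions and 1 in the third of 4 consecutive sets of cells by title number. In the main setting, the same rule called 5.88% of all regions on other chromosomes for cells open at Zic2-Zic5 and 6.1% for cells open at Zic1-Zic4. That share was not computed under the alternative settings, so their counts have no background beside them. The fold between cells open and closed at the other window was 0.836 and 0.778 for the Zic1-Zic4 regions, and 0.800, 1.14 and 0.582 for the Zic2-Zic5 regions. The last of these, the third Zic2-Zic5 region, was open in 14 of the cells open at Zic1-Zic4 (13.6%) and in 42 of those closed there (13.5%). It was the only Zic region 1.5-fold or more lower, where 7.22% of the regions on other chromosomes were.

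Pair by pair, 0 of the 6 combinations of a Zic1-Zic4 and a Zic2-Zic5 region reached 1.5-fold of expected, which 4.11% of all 1043634 combinations of a chromosome 9 and a chromosome 14 region did. Below expected were 5 of the 6, as were 51.7% of all such combinations. The highest was that of the first Zic1-Zic4 with the second Zic2-Zic5 region, open together in 19 cells where 16.2 were expected (ratio 1.18, counting interval 0.708 to 1.84). The lowest was that of the second Zic1-Zic4 with the third Zic2-Zic5 region, with 5 cells where 7.85 were expected (0.637, 0.207 to 1.49). The 6 depth-corrected correlations over cells ran from -0.0927 to 0.0512 with a mean of -0.0232, and the middle 90% of all combinations lay between -0.0804 and 0.0910. They are a description over all cells of 1 sample, and each pair shares the depth of its cells.

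**Figure D3:**
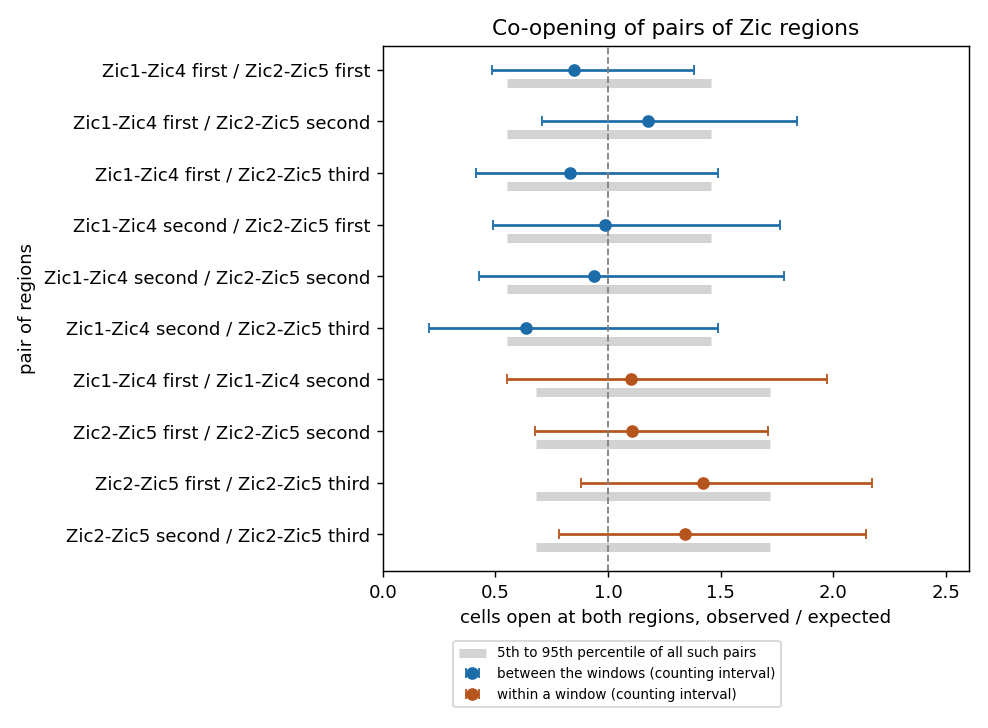
Cells open at both regions of a pair, as observed over expected (horizontal axis), for the 6 pairs between the windows and the 4 pairs within a window, with counting intervals. Grey bars give the 5th to 95th percentile of all pairs of the same kind (chromosome 9 with chromosome 14, or 8 to 20 kb apart on 1 chromosome). Every interval spans 1, and the 4 pairs within a window lie above 1.

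Within a window, all 4 pairs of regions were open together in more cells than expected, each by less than its counting error. The 2 Zic1-Zic4 regions were both open in 11 cells where 9.99 were expected (ratio 1.101, 0.550 to 1.97). Their depth-corrected correlation over cells went the other way, at -0.0139, while the pairs in the Zic2-Zic5 window had 0.0103 to 0.105. In the Zic2-Zic5 window, the first and the third region were both open in 21 cells where 14.8 were expected (1.42, 0.880 to 2.17), the second and the third in 17 where 12.7 were expected (1.34, 0.781 to 2.15), and the first and second in 20 where 18.1 were expected (1.11, 0.676 to 1.71). The median of the 4 ratios was 1.22, and that of all 5784 pairs of regions 8 to 20 kb apart on 1 chromosome was 1.08, with 0.680 and 1.72 as 5th and 95th percentiles. The Zic pairs therefore lie within the range of other pairs at such distances.

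The Zic regions were then read in 3 groups of cells, formed from open and closed values on all autosomes except 9 and 14, so that no Zic region and no neighbour of one took part. Clusters 1, 2 and 3 held 48.1%, 26.1% and 25.8% of the clustered cells, with medians of 3427, 3742.5 and 4867 open regions. The clusters carry numbers only, since the table names no genes by which to name them. Cluster 3 was the deepest, so the share expected from depth is given beside each observed one.

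In cluster 3, the first Zic2-Zic5 region had the highest depth-scaled fold of the 5 Zic regions. It was open in 41 of its cells (38.3%, interval 29.1% to 48.2%; 24.2% expected) and in 40 of all other cells (13.03%, 9.47% to 17.3%; 17.9% expected), a depth-scaled fold of 2.18 (counting interval 1.38 to 3.46). It was the only Zic region 2-fold or more higher in any cluster. By the same rule, 9.75% of the regions on chromosomes 9 and 14 were higher in cluster 3, 10.7% in cluster 2 and 6.44% in cluster 1, so 1 of 5 in cluster 3 and 0 of 5 in the others is near what these chromosomes show. The fold exceeded that of 91.3% of these regions. Among cells at or above the median depth it was 1.92, with the first component kept in the clustering 1.37, and with 4 clusters 1.92, all under the 2-fold limit. For remade clusters this is the fold in the part sharing most cells with cluster 3. Of the 4 nearest regions outside the windows, 2 had higher folds in cluster 3 and the other two had 0.965 and 0.938. The nearest region before the Zic2-Zic5 window was open in 21.5% of cluster 3 and 3.26% of the other cells (4.74, counting interval 2.17 to 11.2), and that before the Zic1-Zic4 window in 43.9% and 10.1% (3.22, 2.004 to 5.25).

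The second and the third Zic2-Zic5 region did not follow the first. In cluster 3 they were open in 15.9% (9.54% to 24.2%; 20.7% expected) and 12.1% (6.63% to 19.9%; 16.9% expected) of the cells, against 16.9% and 14.01% of the other cells. Their depth-scaled folds were 0.690 (counting interval 0.374 to 1.21) and 0.633 (0.312 to 1.20). In cluster 2 they were open in 21.3% (14.005% to 30.2%) and 15.7% (9.45% to 24.002%) of the cells, where the first was open in 11.1% (5.87% to 18.6%). Their folds there were 1.49 (0.860 to 2.503) and 1.30 (0.691 to 2.36), while that of the first was 0.515 (0.254 to 0.958). In cluster 3 the counting interval of the first region's fold did not overlap those of the other two. How often other neighbouring regions differ this way was not counted, and the difference was not tested. Under the alternative settings the first region's fold ran from 1.37, with the first component kept in the clustering, to 5.42, when open meant more than 1 fragment.

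**Figure D4:**
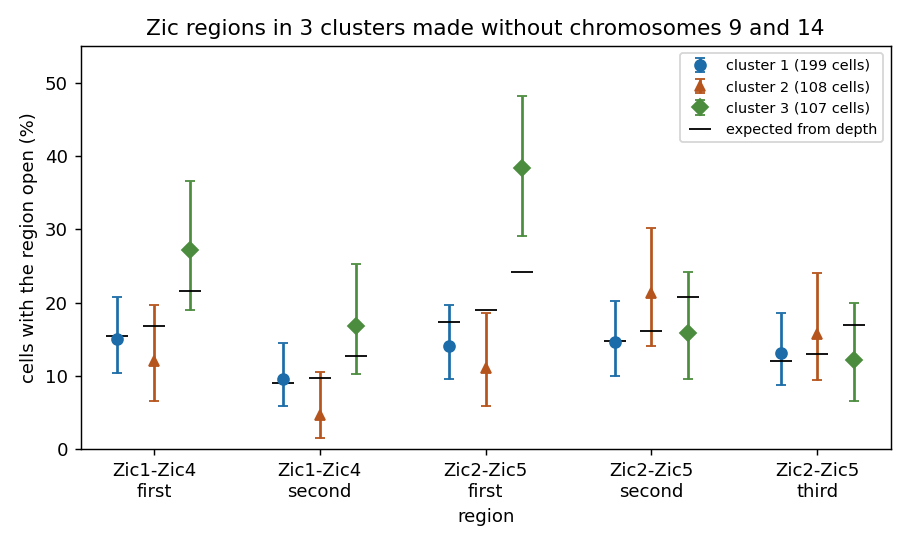
Share of cells open at each Zic region (vertical axis, %) in clusters 1, 2 and 3, with exact 95% intervals, and the share expected from depth as a black bar. In cluster 3 the first Zic2-Zic5 region (38.3%) lies above its expectation (24.2%), while the second and the third lie below theirs.

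Both Zic1-Zic4 regions were at their lowest in cluster 2 and at their highest in cluster 3. Cluster 3 was also the deepest, and the part of depth in this order was not tested beyond the expected shares. The first was open in 12.04% of cluster 2 (6.57% to 19.7%), 15.1% of cluster 1 (10.4% to 20.8%) and 27.1% of cluster 3 (18.96% to 36.6%), with 16.8%, 15.5% and 21.6% expected. The second was open in 5 cells of cluster 2 (4.63%, 1.52% to 10.5%), in 9.55% of cluster 1 and in 16.8% of cluster 3, with 9.71%, 8.96% and 12.8% expected. Its depth-scaled fold in cluster 2 over the other cells was 0.406 (counting interval 0.124 to 1.03), which passes the 2-fold limit for lower regions. The fold was 0.548 among cells at or above the median depth, 0.520 with the first component kept and 0.996 in the third set by title number, all short of the limit, and 1.67 when open meant more than 1 fragment. In the main setting, the second Zic1-Zic4 region was the only Zic region to pass the limit for lower regions in any cluster. The rule called 22.2% of the regions on chromosomes 9 and 14 lower in cluster 2, 11.1% in cluster 1 and 9.32% in cluster 3.

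As a window, Zic1-Zic4 was open in 16 cells of cluster 2 (14.8%, 8.71% to 22.9%; 24.5% expected) and in 87 of all other cells (28.4%, 23.4% to 33.8%; 25.3% expected), a fold of 0.540 (0.296 to 0.927). The Zic2-Zic5 window was open in 37.04% of cluster 2 (27.9% to 46.9%) and in 37.6% of the other cells (32.1% to 43.3%), a fold of 0.999 (0.679 to 1.44), with its first region lower and its other two higher there. Both windows were open in 4 cells of cluster 2 (3.70%, 1.02% to 9.21%; 11.2% expected), in 9.55% of cluster 1 (10.4% expected) and in 19.6% of cluster 3 (17.5% expected).

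Within single clusters the windows were not open together beyond expectation either. With the depth correction refitted inside each cluster, both were open in 19 cells of cluster 1 where 20.02 were expected (ratio 0.949, counting interval 0.571 to 1.48), in 4 of cluster 2 where 8.11 were expected (0.493, 0.134 to 1.26) and in 21 of cluster 3 where 24.9 were expected (0.845, 0.523 to 1.29). In cluster 3, where the first region of each window had its highest share, these 2 regions were both open in 10 cells where 13.8 were expected (0.723, 0.347 to 1.33).

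The cells were also divided by the number in their title, whose meaning the labels do not give, into 4 consecutive sets. At least 1 Zic1-Zic4 region was open in 22.1%, 12.5%, 37.5% and 27.2% of the cells of sets 1 to 4, where depth gave 23.9%, 25.1%, 25.97% and 25.3%. For the Zic2-Zic5 window the shares were 42.3%, 28.8%, 36.5% and 41.7%. The Zic1-Zic4 window was thus least often open in set 2 (interval 6.83% to 20.4%) and most often in set 3 (28.2% to 47.5%). Cluster 2 made up 35.6%, 38.8%, 15.4% and 14.6% of the sets, and the part of the title sets in the cluster values was not tested beyond the values within sets. Both windows were open in 11, 4, 17 and 12 cells, and with the correction fitted to the whole table the ratios to expectation were 0.915, 0.312 (counting interval 0.0850 to 0.799), 1.24 and 0.918. Refitted within each set they were 0.872, 0.709, 0.945 and 0.763. The fold of the first Zic2-Zic5 region in cluster 3 over the other cells was 2.55, 2.02, 2.10 and 2.04 in the 4 sets, and that of the second Zic1-Zic4 region in cluster 2 was 0.204, 0.378, 0.996 and 0.459.

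Regions elsewhere that followed the Zic windows most closely over cells did so weakly. For each window, the 5 regions on other chromosomes with the highest correlation to the summed depth-corrected values of its regions were listed, over all cells. For Zic1-Zic4 they were chr5:113735911-113736545 (0.232), chr7:152359071-152359638 (0.216), chr11:80241810-80242749 (0.207), chr8:3394705-3395365 (0.203) and chr5:68275965-68276558 (0.202). For Zic2-Zic5 they were chr11:68087401-68088318 (0.256), chr6:31883401-31884104 (0.225), chr5:67998366-67999930 (0.208), chr1:120879059-120879796 (0.195) and chr4:89760867-89761657 (0.189). These are the top of 21942 and 22337 regions, whose middle 90% lay between -0.0799 and 0.0878 and between -0.0783 and 0.0859, and values picked from so many lean high.

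The top regions differed in how their openness was spread over the clusters. Unlike the Zic regions, all of them took part in forming the clusters, so such differences are partly built in. The first for Zic2-Zic5 was open in 25.5% of all cells, in 57.01% of cluster 3, 15.6% of cluster 1 and 12.96% of cluster 2. It was open together with the window in 63 cells where 52.5 were expected. As the listed regions were picked by correlation with their window, such an excess is no separate result. The first for Zic1-Zic4 was open in 90 cells, in 28.97% of cluster 3, 24.6% of cluster 1 and 9.26% of cluster 2, and together with the window in 46 cells where 29.5 were expected. The fifth, on chromosome 5, was open in 28.04% of cluster 3, 3.02% of cluster 1 and 2.78% of cluster 2, and together with the window in 24 cells where 13.1 were expected. The third for Zic2-Zic5 was open in similar shares, 16.8% of cluster 3, 18.1% of cluster 1 and 18.5% of cluster 2, and the third for Zic1-Zic4 in 31.8%, 22.1% and 29.6%.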

How the data were processed

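Chromatin accessibility of 415 single cells was analysed, all of 1 group. The deposited table holds signal, a whole number for each of 23180 regions and each cell: of the values above 0, 37.6% equal 148, 5.97% equal 296 and 51.1% are multiples of 74, the pattern of bases summed over paired reads of 74 bases. That unit is read from the values. Per the submitters' processing notes, MACS2 and mm9 were used. Aligner, duplicate handling and the choice of regions: not given in the sources used here. Each region was open in at least 31 cells (7.47%), so rarer regions were not analysed here. No 2 cells held identical values.

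The expected probability of an open value was 1 − exp(−region rate × cell rate), fitted over the whole table. It was tried on data simulated from the fitted probabilities themselves with known changes added. Such a trial cannot show where the real cells depart from the fit. Depth-scaled folds are observed over expected in a group, divided by the same in the other cells. Counting intervals are exact Poisson intervals, or exact binomial ones conditional on the sum for folds. Clusters came from term frequency-inverse document frequency weights, singular value components 2 to 10 and k-means (3 clusters, 50 starts), with 1 cell under 1000 fragments left out (Python 3.11.15, numpy 2.4.6, scipy 1.17.1, scikit-learn 1.9.0). The study is known to have used 3 clusters. All Zic regions are named. The members, lists and settings were chosen with earlier results of these data known. Gene lists that need an annotation on mm9 (other Zic, Gli, neural and endoderm genes) were not run.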

Additional observations from a re-analysis of the deposited data

How the results depend on the processing

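The ratio of cells open in both windows was 0.853. It was 1.27 when open meant more than 1 fragment and 1.20 after thinning each cell to 1500 open regions (33 shallower cells left out). It was 0.709 to 0.945 under the other alternatives. Its side of 1 thus differed between settings. The values 1.27 and 1.20 rest on fewer open cells and were given no interval, so whether the change exceeds counting error was not tested. Among the other alternatives, an expectation fitted to each window's own share was chosen after seeing the data and gave 0.909. The mean correlation between the windows stayed within -0.0631 to 0.0201. The share of cells open at Zic1-Zic4 (24.8%) was 5.78% above 1 fragment, 39.9% in deeper cells, 8.38% after thinning, 12.5% and 37.5% in title sets 2 and 3, and 10.1% without the most widely open region. For Zic2-Zic5 (37.3%) it was 11.1%, 50.5%, 18.1%, 42.3% and 28.8% in sets 1 and 2, and 26.02%. Zic regions 1.5-fold higher in cells open at the other window (0) numbered 2 above 1 fragment, 2 after thinning and 1 in set 3. The share over all regions was not computed in these settings.

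Zic regions 2-fold higher in cluster 3 (1) numbered 0 in deeper cells and with 4 clusters, and 2 after thinning, in sets 1, 2 and 3, with 2 clusters and at a limit of 1.5-fold. With the first component kept the number stayed at 1, but this was not the first Zic2-Zic5 region, whose fold was then 1.37. In cluster 1 (0) there was 1 in sets 2, 3 and 4 and 2 with 2 clusters, where clusters 1 and 3 fall in 1 part. In cluster 2 (0) there was 1 in set 4. For none of these settings was the share over all regions computed, so the counts have no background beside them. The fold of the first Zic2-Zic5 region in cluster 3 stayed above 1, from 1.37 to 5.42. That of the second Zic1-Zic4 region in cluster 2 (0.406) turned to 1.67 above 1 fragment, which leaves 6 open cells, and fell short of 2-fold at 0.548 in deeper cells, 0.520 with the first component kept and 0.996 in set 3. It ran from 0 after thinning to 0.479 under the others. The causes were not tested. No paired analysis of groups was possible because there is 1 group, and the shares of regions were not compared cell by cell. In shallow cells most closed values may be missed openings, which limits all shares.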
